A study of Mus musculus with 7 samples.

Results

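Of 30857 stretches of the mouse genome, each 500 bp long, that were well enough represented in 3 reporter plasmid pools, 1193 (3.87%) gave at least 2-fold fewer reporter reads than their input predicted whichever of 3 promoters they were paired with. These 1193 bins are described here. Each was chosen because its log2 ratio of reporter to input reads was -1 or less for SCP1, pPGK and pR-Ea alike, and a bin entered the comparison only with at least 50 input reads in each of the 3 pools. The ratios with these 3 promoters therefore describe how the bins were picked and are given without a test.

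The study cloned captured DNase hypersensitive sites, the open chromatin in which regulatory elements lie, into self-transcribing reporters and put them into P5424, a mouse line of immature T cells. The groups used here are reporter RNA in pPGK PMA_I, with the phosphoglycerate kinase promoter and a title that names PMA and ionomycin; reporter RNA with pPGK; with SCP1, the synthetic super core promoter 1; and with pR-Ea, a promoter the labels do not spell out; and the input columns for SCP1, pPGK and pR-Ea. The treatment field gives PMA and ionomycin for all 7 samples, so the stimulus was read from the one title that names it. Each group is 1 library of 1 cell line; no replicate exists, no difference below has a test, and intervals cover counting error only.

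A silencer is a DNA element that lowers transcription from a promoter, as an enhancer raises it. In this assay every cloned fragment lies in the transcript of its own reporter, so that RNA reads over plasmid reads rank fragments by output. Reporter and input reads were each divided by their sum over the 30857 bins, and no neutral insert set a baseline. A member is thus low relative to the average accessible site, which does not by itself show that it silences. The series title links silencers in T cells to short tandem repeats, runs of a short unit copied head to tail. Reads from repeated sequence can often be placed at more than 1 site, which gives them a low mapping quality score.

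The 4 files held 61707100 reporter reads for pPGK PMA_I, 72217277 for pPGK, 54992717 for SCP1 and 51450446 for pR-Ea, with 18940646 to 45278192 input reads. The 1193 members took up 3.86% of the SCP1 input reads in the kept bins, 7.40% of the pPGK input reads and 5.95% of the pR-Ea input reads. They gave 0.965% of SCP1 reporter reads, 1.75% of pPGK reporter reads and 1.79% of pR-Ea reporter reads. The median member held 105 reporter reads and 403 input reads with SCP1, 162 and 328 with pPGK, and 197 and 255 with pR-Ea. In the other bins these medians were 590.5 and 511 with SCP1, 479 and 187 with pPGK, and 501 and 188 with pR-Ea. Members thus had fewer reporter reads with each promoter, and more input reads with pPGK and pR-Ea but not with SCP1.

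Members were lowest with SCP1 and pPGK and less far below input with pR-Ea. Their median log2 ratio was -2.10 with SCP1, against -0.12 in the other 29664 bins. With pPGK it was -2.13 in members, against 0.10 in the others, and with pR-Ea -1.70 in members, against 0.00 in the others. Over all kept bins, 14.9% were at -1 or less with SCP1, 9.78% with pPGK and 8.4% for pR-Ea; every member is so by choice, and nothing is read from that. A ratio of -2 or less, a 4-fold deficit, was reached by 647 members with SCP1, 652 with pPGK and 441 for pR-Ea, and by 3.52%, 2.98% and 1.73% of all kept bins with these promoters. It was reached with all 3 promoters by 262 members, -3 or less by 50, and -4 or less by 11.

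**Figure D1:**
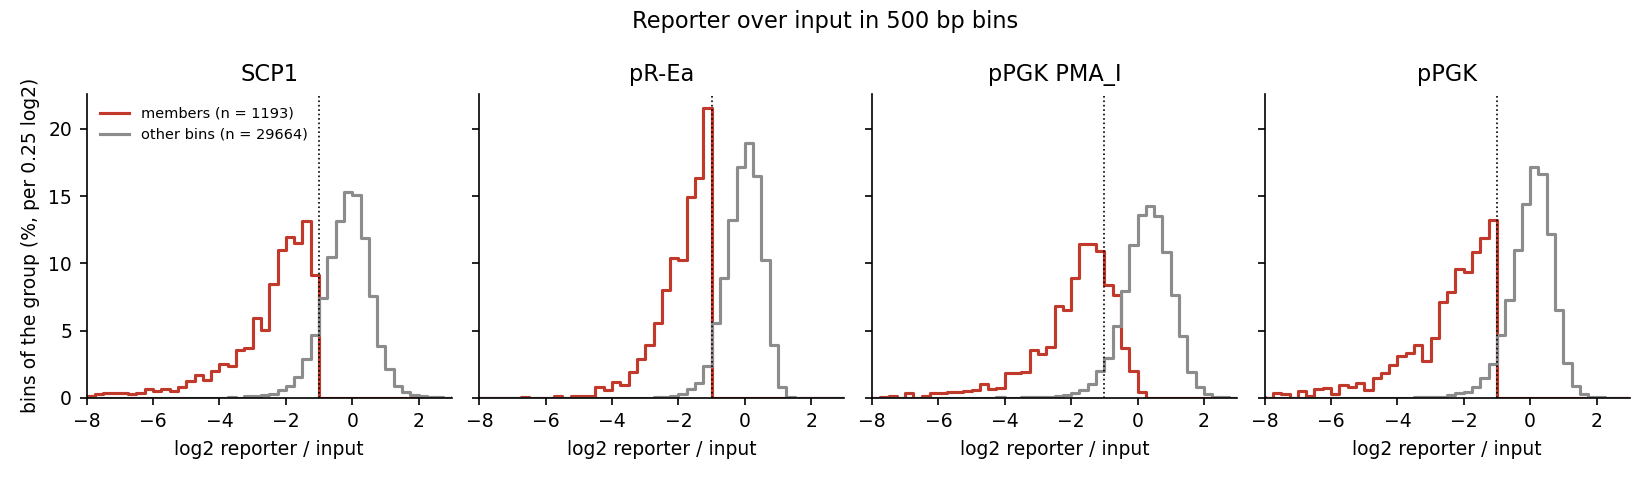
Distribution of the log2 ratio of reporter to input reads (horizontal axes) in 500 bp bins for 4 reporter libraries, as a percent of the 1193 members (red) and of the 29664 other kept bins (grey) per step of 0.25; the dotted line marks -1. With SCP1, pR-Ea and pPGK all members lie left of the line by choice, while in pPGK PMA_I 929 of 1193 do. The PMA_I reporter reads had no part in the choice, but the input of that library is that of pPGK, which did.

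The 3 promoters did not rank members alike. The span between the highest and the lowest of a member's 3 ratios had a median of 1.02 on the log2 scale and was under 1 in 591 of 1193 members (49.5%). The pPGK ratio was the lowest of the 3 in 496 members, the SCP1 ratio in 489 and the pR-Ea ratio in 208. The pR-Ea ratio was the lowest in 17.4% of members and in 33.3% of the other bins. For pPGK the shares were 41.6% of members and 22.2% of the others. For SCP1 they were close, at 41.0% of members and 44.5% of the others. Ratios with pR-Ea also had the smallest spread over all kept bins, with an SD of 0.66, against 0.88 with SCP1 and 0.85 with pPGK. Across members, which are not independent samples, the Spearman rho was 0.57 for SCP1 against pPGK. It was 0.41 for pR-Ea against SCP1 and 0.40 for pR-Ea against pPGK. Over all 30857 kept bins the same pairs gave 0.58, 0.42 and 0.47. The pair of SCP1 and pPGK was thus the highest in both, while the order of the pairs with pR-Ea differed.

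The members with most input reads have the narrowest counting intervals. With distinct positions counted in place of reads, the highest of the 3 ratios of each of the 8 with most input was above -1, from -0.73 to 0.0368. A position counts once however many reads it holds, so in bins this deep the count can miss a deficit in reads. Positions are given on build mm9, counted from 1, and intervals are exact Clopper-Pearson 95% intervals. The first, chromosome 6, 87579001 to 87579500, held 5927 reporter and 11197 input reads with SCP1, which is a log2 ratio of -1.26 (interval -1.31 to -1.21). With pPGK it held 2831 and 6323, a ratio of -2.41 (interval -2.48 to -2.35), and with pR-Ea 5692 against 9101, a ratio of -2.11 (interval -2.16 to -2.07). By distinct positions, 443 for reporter and 500 for input, its highest ratio, that with SCP1, was -0.0226.

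A pair of adjoining members on chromosome 1, 43193001 to 43193500 and 43193501 to 43194000, were the second and the fifth by input. The first of the pair gave, with SCP1, 1410 reporter reads against 15887 (log2 -3.83), 1275 against 6054 with pPGK (log2 -3.50) and 1014 against 3288 with pR-Ea (log2 -3.13). The second of the pair gave 890 against 9720 (log2 -3.79), 1425 against 7096 (log2 -3.57) and 951 against 2636 (log2 -2.91) in the same order. Both bins thus stood in the same order over the promoters. Their reads differed in mapping quality, with 34.2% of the pPGK input reads of the first and 19.9% of those of the second at a score below 30.

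Chromosome 13, 113847001 to 113847500, showed the widest gap between promoters among the 8 with most input. With SCP1 it gave 315 reporter reads against 5148 (log2 -4.37), and with pPGK 905 against 6811 (log2 -4.16). With pR-Ea it gave 5441 against 5871, a ratio of -1.55 (interval -1.60 to -1.49). Chromosome 3, 9540501 to 9541000, ran the other way, at -2.28 with pR-Ea, -1.51 with SCP1 and -1.16 with pPGK. Chromosome 17, 34525001 to 34525500, was lowest with SCP1, at -2.63, then pR-Ea, at -2.43, and pPGK, at -2.04. Chromosome 1, 83057501 to 83058000, was at -2.58 with SCP1, -2.60 with pR-Ea and lowest with pPGK, at -2.96. Chromosome 16, 93309001 to 93309500, was at -2.61 with SCP1, -2.73 with pR-Ea and -2.17 with pPGK.

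Among the 614 members with at least 200 input reads in each pool, chromosome 12, 56696501 to 56697000, was the lowest by its highest ratio. There were 31 SCP1 reporter reads against 845 input reads (log2 -5.07), 56 pPGK reporter reads against 1301 (log2 -5.77) and 210 pR-Ea reporter reads against 1724 (log2 -4.47). Its SCP1 reporter reads came from 13 distinct positions and its input reads from 138. Chromosome 6, 64919001 to 64919500, followed with 27 against 685 for SCP1 (log2 -4.96), 104 against 871 for pPGK (log2 -4.31) and 46 against 343 for pR-Ea (log2 -4.31). These members lay far below the threshold with each promoter.

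Some members gave no reporter read at all with 1 promoter. Chromosome 1, 64989501 to 64990000, had 0 counted pPGK reporter reads against 229 input reads. That is at least 182-fold below input at a floor of 3 reads per library, but it rests on the score filter. All of its pPGK reporter reads (100%) lay at lower scores and were left out, as were 29.3% of its pPGK input reads. The same bin gave 17 against 274 with SCP1 (log2 -4.27) and 33 against 224 with pR-Ea (log2 -4.16). Chromosome 1, 136621001 to 136621500, had 450 input reads and 0 reporter reads with SCP1, at least 190-fold below input at the same floor, and 8 against 385 with pPGK (log2 -6.68). With pR-Ea it still gave 59 against 303 (log2 -3.78). In all, 0 members had no counted reporter read with pR-Ea, 6 with pPGK and 17 with SCP1. At any score, 1190 of the 1193 members had a pPGK reporter read.

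The other members of this group were chromosome 9, 27999501 to 28000000, chromosome 2, 105249501 to 105250000, chromosome 4, 24658501 to 24659000, and chromosome 2, 7368001 to 7368500. Their highest ratios over the 3 promoters were -4.09, -3.89, -3.74 and -3.69. The last pair had nearly equal ratios with all 3 promoters, from -3.85 to -3.74 on chromosome 4 and from -3.97 to -3.69 on chromosome 2, within the counting intervals.

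**Figure D2:**
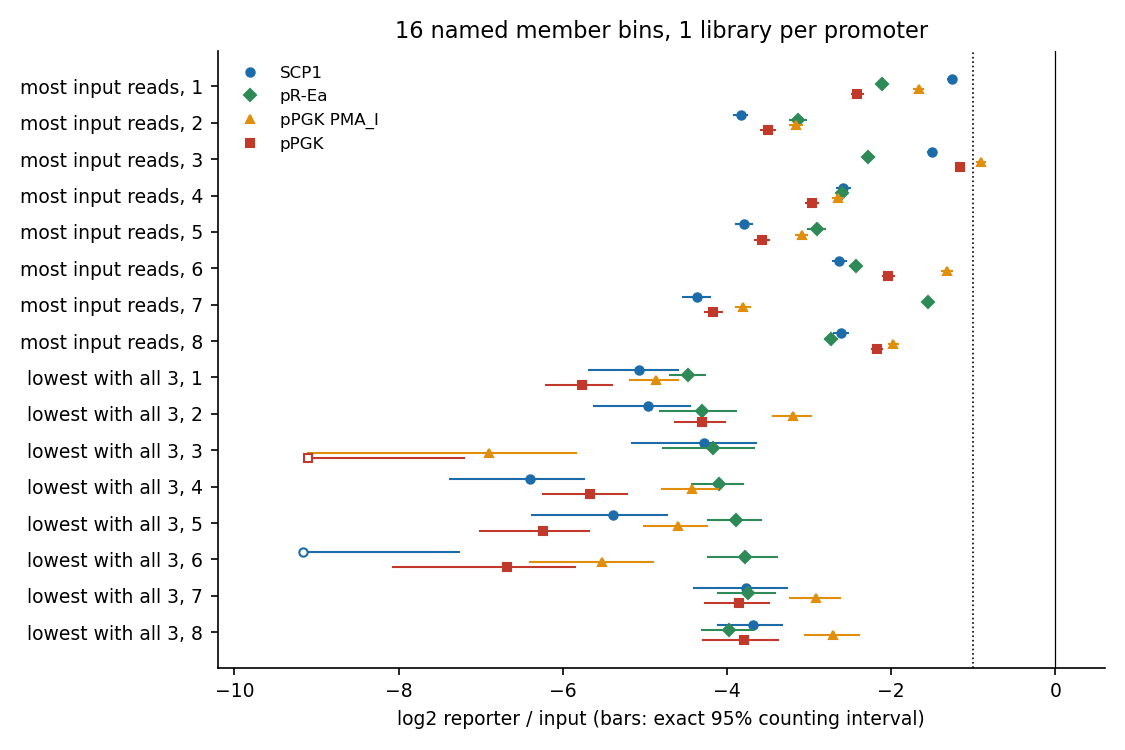
Log2 ratio of reporter to input reads (horizontal axis) with the exact 95% counting interval for 16 members: the 8 with most input reads and the 8 lowest with all 3 promoters, numbered by rank, with 1 library per promoter. An open symbol is a library with 0 reporter reads, whose point is set by the pseudocount of 1 and whose interval has no lower end and a two-sided upper end, wider than the floor of 3 reads. The pPGK PMA_I triangle is right of the pPGK square in all 16 rows, but the kept-bin median is also higher in PMA_I, at 0.28, against 0.07 with pPGK. In reporter reads alone the log2 ratio of PMA_I to pPGK was -0.0364 on chromosome 3 at 9540501 and 0.0327 on chromosome 16 at 93309001, with intervals that include 0.

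At the threshold the choice lies within counting error. Just inside, chromosome 4, 48825501 to 48826000, was at -1.0001 with pR-Ea (1313 against 969 reads, interval -1.12 to -0.88), chromosome 14, 77883001 to 77883500, at -1.0004 with pR-Ea (4142 against 3058) and chromosome 17, 66896001 to 66896500, at -1.0005 with pPGK (1840 against 1543). Just outside, chromosome 6, 42959501 to 42960000, was at -0.9998 with pR-Ea (125 against 92 reads, interval -1.40 to -0.59). It was far lower with SCP1, at -3.48, and with pPGK, at -4.11. The next outside were chromosome 17, 65656501 to 65657000, at -0.9988 with pR-Ea, and chromosome 12, 109709501 to 109710000, at -0.9986 with SCP1.

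A bin low with 2 promoters was usually low with the remaining one. The choice of the pair did not use the ratio of the remaining promoter, but its input reads helped set which bins were kept. The bins low with all 3 are in each case the 1193 members, so the shares describe the same ratios that chose them. Of 1387 bins at -1 or less with pPGK and pR-Ea, 86.0% were so with SCP1, against 11.5% of the bins not chosen by that pair. Of 1589 bins low with SCP1 and pR-Ea, 75.1% were low with pPGK, against 6.24% of the rest. Of 2020 bins low with SCP1 and pPGK, 59.1% were low with pR-Ea, against 4.85% of the rest. The median ratio with the remaining promoter was -1.94 with SCP1, -1.69 with pPGK and -1.17 for pR-Ea. Only 11, 43 and 87 of these bins were above 0 with it.

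Most of the better-represented positions in members were themselves low. Of positions with at least 10 input reads, 86.0% in members were at a log2 ratio of -1 or less with SCP1, against 48.0% in the other bins. With pPGK the shares were 90.4% in members and 30.7% elsewhere, and with pR-Ea 87.5% in members and 25.6% elsewhere. No SCP1 reporter read was seen at 37.7% of such positions in members, against 17.2% elsewhere. With pPGK this was so for 12.5% of positions in members, against 0.507% elsewhere. The median member had reporter reads at 30 positions and input reads at 96 with SCP1, while the median other bin had 69 and 76. These measures come from the contrast that chose the members. With distinct positions counted in place of reads, 245 bins met the rule, of which 220 were among the 1193.

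The strands of a member were alike with SCP1 and pR-Ea and less so with pPGK. Of members with at least 20 input reads on each strand, both strands were at -1 or less in 964 of 1068 with SCP1 and 896 of 1071 with pR-Ea, but in 371 of 656 with pPGK. In the other bins both strands were that low in 7.74% with SCP1, 3.24% with pR-Ea and 1.60% with pPGK. A strand was above 0 in 4 members with SCP1, 3 with pR-Ea and 66 with pPGK, against 49.9%, 57.6% and 76.4% of the other bins. These reads are those that chose the members. A 5' end listed on both strands was counted on 1 strand alone, that of the line listed first. Before the score filter there were 682234 such ends with pPGK, 267951 with SCP1 and 194650 with pR-Ea. Their part in the difference between promoters was not tested. The 656 members that could be read on both strands with pPGK had median ratios of -1.71 on the plus strand and -1.66 on the minus strand. The median pPGK input was spread over 43 positions in a member, against 96 with SCP1 and 85 with pR-Ea.

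Members tended to lie side by side. Another member adjoined 407 of the 1193 members (34.1%), and a member adjoined 310 of the other 29664 bins (1.05%). Nearly the same share of both had a kept bin beside them, at 57.1% of members and 52.3% of the others. Of the 681 members with a kept neighbour, 59.8% had a member there. The 1193 members formed 980 runs, of which 786 were single bins, 178 were pairs, 14 were of 3 bins, 1 of 4 and 1 of 5. Fragments are listed as 315 bp long and can reach into the adjoining bin, so neighbours are not independent, and the part of this overlap was not tested. In bins of 1000 bp the share of members beside another was 18.9%.

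The run of 5 was on chromosome 2, from 89225001 to 89227500. Its SCP1 ratios were -2.42, -2.49, -2.60, -4.08 and -2.84 along the chromosome. With pPGK they were -2.97, -2.20, -1.41, -2.08 and -3.43, and with pR-Ea -1.58, -1.83, -1.83, -1.29 and -1.62. The SCP1 and pPGK ratios varied along the run by more than those of pR-Ea. Its bins held 138 to 498 SCP1 input reads each.

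The low output faded with distance. At 500 bp before a member's centre the median log2 ratio in 100 bp steps was -1.64 with SCP1, -1.60 with pPGK and -1.35 for pR-Ea, and at 500 bp after it -1.42, -1.37 and -1.39. At the centre the medians were -2.04, -2.10 and -1.72. At 1000 bp before the centre they were -0.79, -0.78 and -0.88, still below those around other bins, which were -0.25, 0.00 and 0.03. Few members had 10 input reads so far out, 90 with SCP1, 56 with pPGK and 65 for pR-Ea. The 310 kept bins that adjoin a member without being one had median ratios of -0.9997 with SCP1, -0.76 with pPGK and -0.79 for pR-Ea. Bins that adjoined no member were at -0.12, 0.10 and 0.01.

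**Figure D3:**
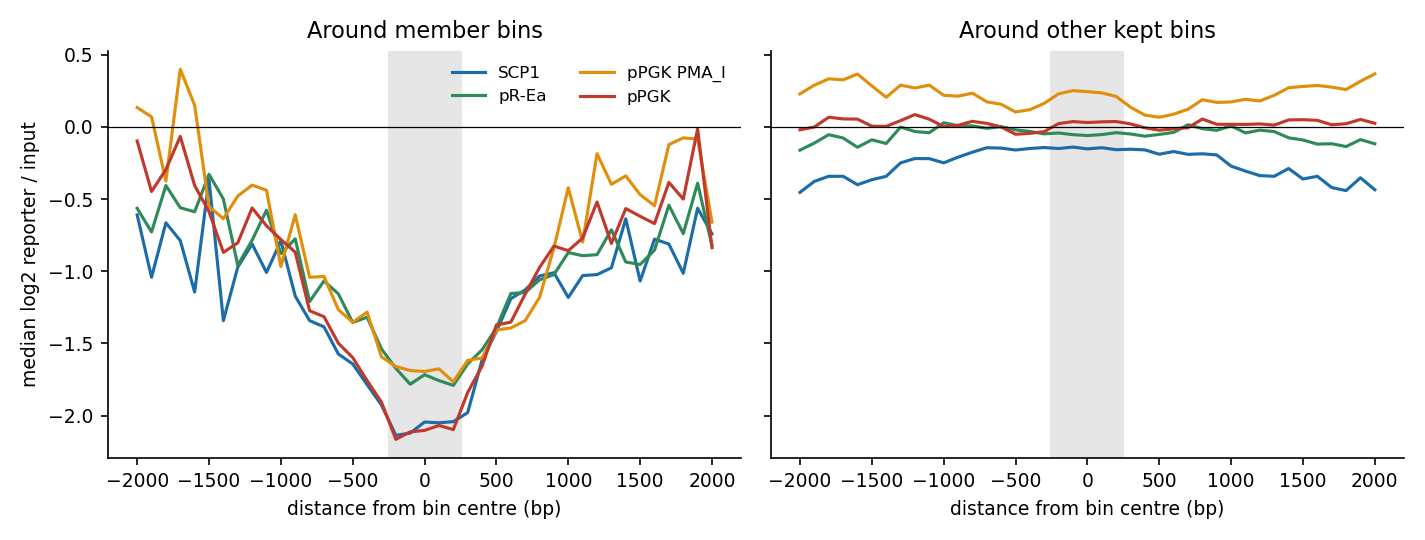
Median log2 ratio of reporter to input reads (vertical axis) in steps of 100 bp by distance from the centre of the bin (horizontal axis), around 1193 members (left) and 29664 other kept bins (right); the grey band is the 500 bp bin, and a step needs 10 input reads. Around members all 4 lines dip at the bin and stay below 0 to 1000 bp on each side, while around other bins they are nearly flat.

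Members were found on every autosome and on X. The share of kept bins that were members ran from 2.54% on X (17 of 670) and 2.77% on chromosome 11 (66 of 2383) to 4.89% on chromosome 19 (48 of 982) and 6.43% on chromosome 18 (62 of 964). The exact interval for chromosome 18, 4.97% to 8.17%, lay above the 3.87% of all kept bins, and that for chromosome 11, 2.15% to 3.51%, below it; these intervals take bins as independent, which adjoining bins are not. Of the 62 kept bins on unplaced sequences 8 were members.

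Reads of low mapping quality set members apart from other bins, and the choice of members had left out lines with such scores. For these shares each 5' end was taken once, at the line listed first, before the score filter. A 5' end so called low was still counted in the choice if its other line had a score of 30 or more. The median member had 21.4% of its pPGK input reads at positions with a score below 30, against 1.41% in the other bins. For pPGK reporter reads the medians were 19.6% in members and 1.57% elsewhere, close to those of the input. Within a single member the shares could differ either way. On chromosome 12 at 56696501 they were 13.6% of input and 39.7% of reporter reads, and on chromosome 2 at 7368001 32.2% and 5.77%. At least 20% of pPGK input reads were of low score in 621 members (52.1%), against 21.6% of the other bins. The SCP1 and pR-Ea files list no score under 30, but fewer of their reads had the top score of 42 in members. The median share of input reads below 42 was 25.5% in members and 11.7% elsewhere with SCP1, and 21.5% in members and 7.06% elsewhere with pR-Ea.

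Bins with more low-score reads were more often members. Of 10915 bins with no low-score pPGK input read, 85 were members (0.779%). The share was 2.38% of 7652 bins with up to 5% of such reads, 5.77% of 5284 with 5 to 20%, 8.75% of 3978 with 20 to 50% and 9.02% of 3028 with more. The share of bins at -1 or less with SCP1, whose own reads take no part in this grouping, went the same way, from 9.17% in the first class to 25.5% in the last. The 85 members with no low-score read had median ratios of -1.68 with SCP1, -1.55 with pPGK and -1.42 for pR-Ea. The 348 members with 20 to 50% of such reads had -2.24, -2.40 and -1.94. With all scores counted there were 1191 members, of which 1112 were also among the 1193. Whether the sequence of the members is repetitive was not analysed here, since no genome of the files' build was used.

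**Figure D4:**
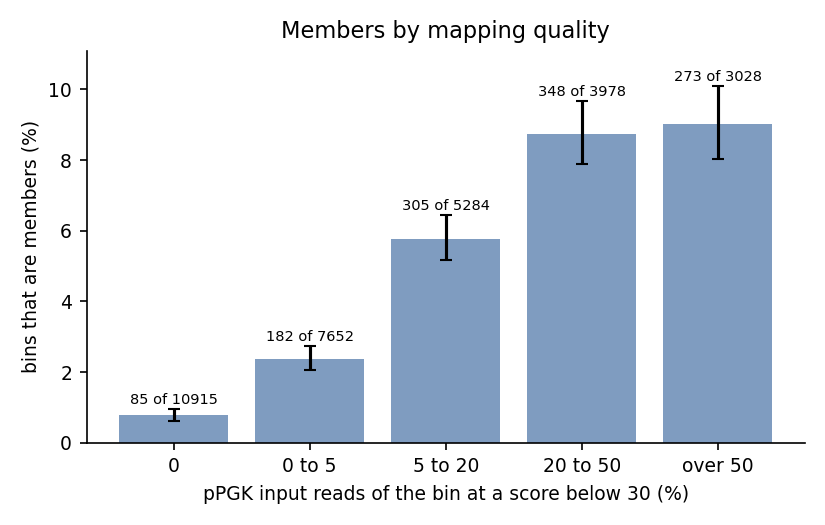
Share of kept bins that are members (vertical axis, bars from 0, exact 95% binomial interval taking bins as independent) by the percent of a bin's pPGK input reads at a mapping quality score below 30 (horizontal axis), with members and kept bins above each bar. The share is 0.779% in bins with none and 9.02% in bins with over 50%.

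In pPGK PMA_I, whose reporter reads had no part in the choice, most members were again below input. A log2 ratio of -1 or less was seen in 929 of 1193 members (77.9%), against 1426 of the other 29664 bins (4.81%); over all kept bins it was 7.63%. The median ratio was -1.62 in members and 0.32 elsewhere. No member was at 1 or more, a level reached by 4562 other bins and by 14.8% of kept bins. The input of this library is that of pPGK, which did enter the choice. In the PMA_I file 2 bins on chromosome 2, of which 1 starts at 98507001 and the other at 98506501, held 5.84% of all input reads in the kept bins, and the median ratio over all kept bins was 0.28; with the input as counted in the pPGK file 83.8% of members were at -1 or less, and with each library's median set to 0, 86.9% of members and 8.62% of other bins were at -1 or less.

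Reporter reads of members were higher in pPGK PMA_I than in pPGK, relative to other bins. The log2 ratio of PMA_I to pPGK reporter reads had a median of 0.45 in members, with the middle of the members between 0.12 and 0.78, against 0.01 in the other bins. It was above 0 in 982 of 1193 members (82.3%), against 50.7% of the others. It was 1 or more in 166 members (13.9%), where 1.36% of all kept bins were, and -1 or less in 11 members (0.922%), where 0.677% were. The pPGK reads had entered the choice of these members. The 1589 bins chosen with SCP1 and pR-Ea alone, without the pPGK reads, had a median of 0.35, against 0.00 in the rest, and 10.6% of them were at 1 or more.

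This difference went with how low a bin was with the other promoters and, less evenly, with its mapping quality. By the higher of the SCP1 and pR-Ea ratios, the median log2 ratio of PMA_I to pPGK was 0.71 in 62 bins at -3 or less, 0.53 in 275 bins from -3 to -2, 0.42 in 359 from -2 to -1.5 and 0.25 in 893 from -1.5 to -1. It was 0.07 in 2684 bins from -1 to -0.5, 0.04 in 7134 from -0.5 to 0 and -0.01 in 19450 bins above 0. The lowest class held few reads, with medians of 28.5 pPGK and 51.5 PMA_I reporter reads. The median share of low-score pPGK input reads in these classes was 20.8%, 23.5%, 25.7%, 15.6%, 5.47%, 2.27% and 0.917%. Among the classes at -1.5 or less this share rose while the median ratio of PMA_I to pPGK fell. Of bins chosen with SCP1 and pR-Ea, the 162 with no low-score pPGK input read had a median of 0.06, against -0.05 in the other bins with none. The 85 members with no such read had a median of 0.09, which is 0.14 above the other bins with none. With no filter on the score the median of members was 0.16 above that of the other bins, in place of 0.44. The score filter kept 100% of PMA_I reporter reads and 66.7% of pPGK reporter reads, so the files were not alike before it. The part of mapping quality in this difference was not tested.

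**Figure D5:**
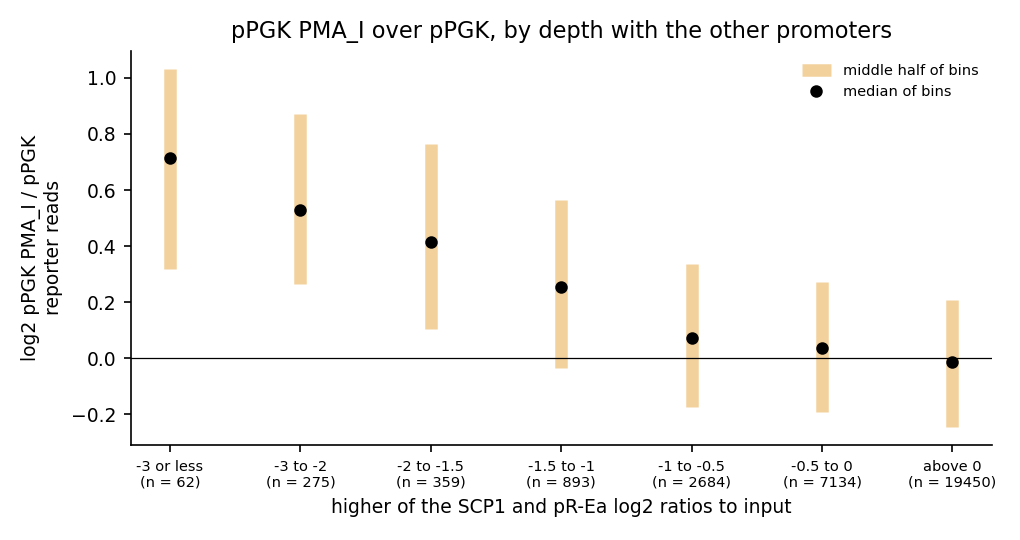
Log2 ratio of pPGK PMA_I to pPGK reporter reads (vertical axis) in classes of kept bins by the higher of their SCP1 and pR-Ea log2 ratios to input (horizontal axis, low to high, with the number of bins); points are medians and bars span the middle 50% of bins. The median is 0.71 in the lowest class and -0.01 in the highest, and the pPGK reads had no part in the classes.

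Of the 1111 members with at least 50 reads over both pPGK libraries, chromosome 7, 132056001 to 132056500, had the highest ratio of PMA_I to pPGK reporter reads. It held 94 reporter reads in PMA_I and 17 in pPGK, a log2 ratio of 2.19 (interval 1.505 to 3.099). It remained below input in PMA_I, at -2.55, against -4.74 with pPGK, and 79.8% of its pPGK reporter reads lay at low scores and were not counted. Chromosome 8, 13994001 to 13994500, held 46 reads in PMA_I and 8 in pPGK (log2 2.18, interval 1.22 to 3.61), with 33.3% of its pPGK reporter reads at low scores. Chromosome 11, 69092501 to 69093000, held 210 in PMA_I and 41 in pPGK (log2 2.12, interval 1.66 to 2.67), with 29.3% of pPGK reporter reads and 4.21% of pPGK input reads at low scores. Its ratio to input was -1.60 in PMA_I and -4.08 in pPGK. Chromosome 3, 34702501 to 34703000, held 69 in PMA_I and 13 in pPGK (log2 2.11), with 73.5% of pPGK reporter reads and 54.8% of pPGK input reads at low scores.

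The members lowest in PMA_I relative to pPGK were chromosome 3, 88140501 to 88141000, with 13 reporter reads in PMA_I and 80 in pPGK (log2 -2.74, interval -3.80 to -1.97), and chromosome 19, 16194001 to 16194500, with 38 and 144 (log2 -2.10, interval -2.69 to -1.60). The first of these gave 0 SCP1 reporter reads against 195 input reads, at least 82.4-fold below input at the floor of 3 reads. Chromosome 7, 130166001 to 130166500, was at -1.55 and chromosome 7, 144602501 to 144603000, at -1.45. The counted pPGK reporter reads of all these members came from 6 to 14 positions each. In the bin at 130166001, 92.6% of pPGK reporter reads and 95.9% of pPGK input reads lay at low scores by the line listed first. Not all of these were left out, since 88 pPGK reporter reads and 115 input reads were counted there after the score filter. For pPGK reporter reads this share was 0.917% at 144602501, 5.26% on chromosome 19 and 0% on chromosome 3.

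The members highest in PMA_I were near their input but below the typical kept bin, whose ratio there was 0.28, against 0.07 with pPGK. Chromosome 10, 77147501 to 77148000, gave 236 reporter reads against 93 input reads there (log2 0.23, interval -0.11 to 0.60), and 103 against 92 with pPGK (log2 -1.09). Chromosome 11, 101462001 to 101462500, was at 0.11 in PMA_I (interval -0.22 to 0.46) and at -1.54 with pPGK. Chromosome 7, 148296501 to 148297000, was at 0.08 in PMA_I (interval -0.11 to 0.27) and at -1.01 with pPGK. Each interval in PMA_I includes 0. With the median of the kept bins set to 0 these 3 were at -0.0529, -0.17 and -0.21 in PMA_I, and 0 of 1193 members were above 0.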

How the data were processed

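Bowtie2, SAMtools, bedtools 2.28.0 and build mm9 are named by the submitters' processing notes, without roles or order. The files as deposited carry no column names. Each deposited line gives a fragment, nearly always 315 bp long, the mapping quality score its reads had and 2 read counts per 5' end, which the authors left as whole numbers without normalization. The first count was read as reporter and the second as input, which no label states; the second was equal on all 5646980 lines shared by both pPGK files. A 5' end listed on both strands had the same counts on each line and was counted once, on the line listed first, after scores below 30 were left out.

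Reads were placed by fragment midpoint in 500 bp bins. Ratios are log2 with a pseudocount of 1, scaled to totals over kept bins (Python 3.11.15, numpy 2.4.6, pandas 2.3.3, SciPy 1.17.1). No group has a replicate, so nothing was tested. Counting intervals take reads as independent molecules, which PCR copies are not, and are too narrow. The steps were tested on simulated data and repeated with other filters, thresholds, scalings and bins. Bins were named by fixed rules: most input, lowest with all 3 promoters, nearest the threshold, largest changes in PMA_I, the longest run and the highest in PMA_I. Members, rules and lists were chosen with earlier results of these data known. No mm9 genome or annotation was used, so sequences, repeats, motifs and genes were not analysed here.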

Additional observations from a re-analysis of the deposited data

Results flagged for a closer look

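On the scale of totals, 5 members had a ratio above 0 in pPGK PMA_I and below 0 with pPGK; with 1 library each this difference was not tested. The sign rests on the scaling: the median over all kept bins was 0.28 in PMA_I and 0.07 with pPGK, and with it set to 0 none of the 5 was above 0 in PMA_I. Their log2 ratios in PMA_I were 0.23 on chromosome 10, 77147501 to 77148000, 0.11 on chromosome 11, 101462001 to 101462500, 0.0757 on chromosome 7, 148296501 to 148297000, 0.0745 on chromosome 1, 35425001 to 35425500, and 0.0425 on chromosome 18, 77605001 to 77605500. With pPGK the same bins were at -1.09, -1.54, -1.01, -1.19 and -1.39. With the kept-bin median set to 0 they were at -0.0529, -0.17, -0.21, -0.21 and -0.24 in PMA_I.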

How the results depend on the processing

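No paired analysis was possible because each group holds 1 library. The causes of the shifts below were not tested. Against 1193 members, 591 met the rule with at least 200 input reads, 245 with distinct positions in place of reads, 538 at a log2 ratio of -1.5 or less, 2593 at 1.5-fold below input, 721 on the plus strand alone and 736 on the minus strand alone.

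The share of members below input in pPGK PMA_I, 77.9%, was 74.5% with no score filter, 84.2% with positions of low score in any file left out, 86.9% with medians set to 0, 73.7% with each listed line counted and 68.3% on the minus strand. It was 83.8% with the input of the pPGK file and 64.7% in bins with no low-score pPGK input read, both chosen after seeing the data.

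The median log2 ratio of PMA_I to pPGK in members over that in other bins, 0.44, was 0.16 with no score filter, 0.38 with 20 input reads, 0.50 with 200, 0.56 with distinct positions, 0.58 at -1.5, 0.26 at 1.5-fold, 0.49 on the minus strand and 0.14 in bins with no low-score read. For bins chosen with SCP1 and pR-Ea alone, 0.34, it was 0.11 with no score filter, 0.30 with positions of low score in any file left out, 0.28 with 20 input reads, 0.44 with 200, 0.41 with distinct positions, 0.47 at -1.5, 0.19 at 1.5-fold and 0.11 in bins with no low-score read.

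The share low with pPGK when chosen with the other pair, 75.1%, was 72.4% with no score filter, 68.4% with 20 input reads, 81.5% with 200, 80.2% with medians set to 0, 68.1% with distinct positions, 77.3% at -1.5 and 72.1% at 1.5-fold. For pR-Ea, 59.1%, it was 54.9% with 20 input reads, 48.1% with distinct positions, 55.5% at -1.5, 62.3% at 1.5-fold, 53.6% on the plus strand and 54.5% on the minus strand. For SCP1, 86.0%, it was 78.6% with 20 input reads, 90.8% with 200, 80.6% with medians set to 0, 90.7% with distinct positions and 83.3% at -1.5.

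The share of members beside another, 34.1%, was 30.6% with positions of low score in any file left out, 30.4% with 20 input reads, 30.1% with 200, 23.3% with distinct positions, 18.9% in 1000 bp bins and 30.9% on the plus strand. The median share of low-score pPGK input reads in members, 21.4%, was 14.3% below a score of 10 and 34.0% by listed lines.

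Of 379 values of the 35 named members under the alternatives that can move a ratio, 334 stayed at -1 or less; the 8 with most input did not with distinct positions. The highest of the 3 ratios turned above 0 with distinct positions on chromosome 3 at 9540501 (0.0368), chromosome 14 at 77883001 (0.0557), chromosome 7 at 130166001 (0.0111) and chromosome 11 at 101462001 (0.50), and on the minus strand on chromosome 4 at 48825501 (0.35).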
